A study of Mus musculus with 278 samples.

Results

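Expression of the genes that write, copy and remove DNA methylation was measured in single spermatogonia of mice at postnatal day 6. The genes were the DNA methyltransferases Dnmt1, Dnmt3a and Dnmt3b, the cofactors Dnmt3l and Uhrf1, and the dioxygenases Tet1, Tet2 and Tet3. These 8 of the 23354 genes in the deposited matrix were chosen by name. All 278 cells were spermatogonia positive for an EGFP reporter of Id4 and came from untreated animals, with testes of at least 2 pups pooled, per the labels' protocols. Strain is not given in the sources used here, and cells negative for EGFP were not analysed here. Each cell was imaged after capture and assigned to a quartile of EGFP brightness, from Q1 (bright, 74 cells) through Q2 (70 cells) and Q3 (74 cells) to Q4 (dim, 60 cells). Titles number the cells in 5 sets of 26, 62, 37, 75 and 78, each with cells of all 4 quartiles. These sets are called preparations here, although the labels do not say whether the number marks a cell preparation, a capture chip or a sequencing run.

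Values are FPKM, fragments normalised to transcript length and to the mapped total of a cell, so levels can be set beside each other between genes per length. A gene was counted as detected in a cell at FPKM of at least 1. Depth was estimated at 217276 to 1351770 mapped fragments, with a median of 673960. At the median depth an FPKM of 1 stands for 1.23 fragments of Dnmt3l, 2.42 of Uhrf1 and 9.68 of Tet1, given the longest annotated transcript, so low values of short transcripts rest on few fragments. Cells of Q1 had 6256 detected genes on average and cells of Q4 had 5698. Preparation 3 stood apart by its low mean of 4437 detected genes (5875 to 7148 elsewhere), although its estimated depth (median 747826 fragments) lay within their range. Germ cell markers were present throughout (median 12 of 13 detected per cell, lowest 4). Of 11 Sertoli markers a cell had a median of 1, mostly Ctsl, a protease gene that was detected in 92.1% of cells (median 94.7 FPKM). Clu was found in 10.1%, Sox9 in 7.55% and Wt1 in 6.12% of cells, while Amh and Fshr were in 0. One cell, in Q3 of preparation 2, had 8 Sertoli and 12 germ cell markers, and no other cell had more than 4 Sertoli markers. Of 12 Leydig and peritubular markers a cell had at most 3, with Col1a1 in 23.4% and Star in 19.8% of cells, and 6 of them, among them Cyp17a1, Hsd3b1, Cyp11a1 and Insl3, in 0. Of 8 endothelial and blood markers in the matrix a cell had at most 3, with Cd68 in 14.4% of cells. The summed level of the Sertoli list averaged 131 FPKM in Q1 and 111 in Q4. The part of these markers in the results was not tested.

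DNA methylation in mammals is set by DNMT3A and DNMT3B, which methylate new sites, often with the inactive relative DNMT3L. It is copied at each replication by DNMT1, which UHRF1 recruits to hemimethylated DNA. TET enzymes oxidize methylated cytosine and so start its removal. In the male germ line new methylation is laid down in fetal prospermatogonia and is then maintained while spermatogonia divide after birth. Kit, a receptor tyrosine kinase, and Stra8, a gene induced by retinoic acid, are commonly used markers of the step from undifferentiated to differentiating spermatogonia.

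The 8 genes fell into an abundant and a sparse set. Uhrf1 had the highest level, with a median of 147 FPKM over the 278 cells and detection in 98.6% of them. Dnmt1 followed with a median of 43.1 FPKM (98.9% of cells), then Dnmt3b with 32.6 FPKM (85.3%) and Dnmt3a with 9.82 FPKM (90.3%). Tet3 was detected in 51.8% of cells, with a median of 1.17 FPKM. Tet2 was detected in 15 cells (5.40%), Tet1 in 10 (3.6%) and Dnmt3l in 9 (3.24%), each with a median of 0. Averaged over preparation means, the levels were 160 ± 37.6 FPKM for Uhrf1, 55.3 ± 11.1 for Dnmt1, 38.2 ± 7.31 for Dnmt3b and 13.8 ± 2.53 for Dnmt3a (SD, n = 5). Those of the sparser genes were 4.29 ± 0.75 FPKM for Tet3, 0.65 ± 0.92 for Dnmt3l, 0.48 ± 0.43 for Tet2 and 0.17 ± 0.13 for Tet1 (SD, n = 5). The preparation ranges of Uhrf1, Dnmt3a and Tet3 did not overlap those of their neighbours in this order. Those of Dnmt1 (45.2 to 73.4) and Dnmt3b (33.8 to 51.1) overlapped, as did those of Dnmt3l, Tet2 and Tet1. The filter on low values, which asked for detection in 10% of cells or more, kept 10452 genes, among them 5 of the 8 members. Dnmt3l, Tet1 and Tet2 did not pass it.

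**Figure D1:**
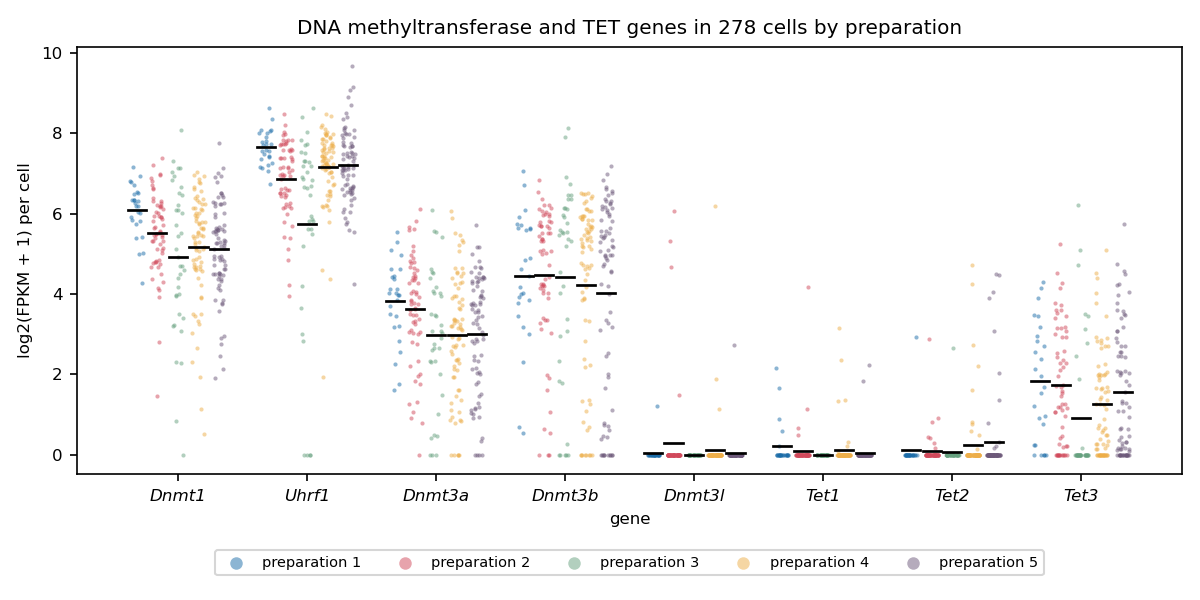
Level of each of the 8 genes in each of the 278 cells, as log2(FPKM + 1) on the vertical axis. Points are cells, coloured by preparation, and black bars are preparation means. Dnmt1, Uhrf1, Dnmt3a and Dnmt3b were detected in most cells of each preparation, Tet3 in 51.8% of all cells, and the other 3 genes in 9 to 15 cells each.

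Most of the variation lay between cells of the same preparation and quartile. For Dnmt3b this share of the sum of squares of log2(FPKM + 1) was 94.6%, with 4.68% between quartiles within preparations and 0.71% between preparations. The median over the 10452 genes kept was 90.4% between cells. Dnmt1 (89.1%), Dnmt3a (88.7%) and Tet3 (90.9%) lay near that median. Uhrf1 differed, with 59.2% between cells, 25.2% between quartiles within preparations and 15.6% between preparations. These shares include the 7 cells of preparation 3 in Q4, whose mean log2(FPKM + 1) of Uhrf1 was 2.16. The other preparation and quartile means of Uhrf1 ran from 6.35 to 7.81, and the shares were not computed without the 7 cells. In combination, 210 of 278 cells (75.5%) had Dnmt1, Uhrf1, Dnmt3a and Dnmt3b all detected.

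The maintenance genes Dnmt1 and Uhrf1 were present in nearly every cell and varied together. Uhrf1 stood above Dnmt1 in 256 of 278 cells (92.1%). Their Spearman correlation over cells within preparations was 0.18, 0.30, 0.37, 0.34 and 0.23 in preparations 1 to 5, with a mean weighted by cell number of 0.29, and it was above 0 in each. Among all genes kept by the filter, Uhrf1 was the gene closest to Dnmt1 by this measure once detected genes per cell were regressed out (mean rho 0.29), followed by Hmox1, which encodes heme oxygenase (0.26). Cells with the same preparation number are not independent of each other, so all correlations over cells are descriptions with no test.

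Dnmt1 lies on chromosome 9 of GRCm38 (20907209 to 20959888, minus strand) and Uhrf1 on chromosome 17 (56303321 to 56323486, plus strand), both protein coding. Because they varied together, their promoter windows are shown, from RefSeq on build GRCm38.p6, each running from 250 bases before to 50 bases after a transcript start and written 5′ to 3′ along the gene's strand. The capitals mark letters typical of sites for E2F, the factor family that drives genes of the G1/S transition. The letters searched on both strands were TTTGGCGC, TTTCCCGC, TTTCGCGC and TTTGCCGC. Of the 3 Dnmt1 windows the one at chr9:20952574-20952873 (minus strand) held 2 matches, beginning at positions -219 and 34 relative to the start. Those at chr9:20952930-20953229 and chr9:20959839-20960138, upstream of it on the minus strand, held 0. Which start these cells used was not examined. Of the 2 Uhrf1 windows the one at chr17:56304063-56304362 (plus strand) held 1, beginning at position -185.
Dnmt1: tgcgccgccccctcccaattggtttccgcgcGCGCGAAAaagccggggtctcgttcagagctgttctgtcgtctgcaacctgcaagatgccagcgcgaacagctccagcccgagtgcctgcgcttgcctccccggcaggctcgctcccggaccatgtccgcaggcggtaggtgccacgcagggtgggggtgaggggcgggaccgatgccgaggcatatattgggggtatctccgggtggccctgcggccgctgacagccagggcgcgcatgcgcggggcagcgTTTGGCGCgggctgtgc
Uhrf1: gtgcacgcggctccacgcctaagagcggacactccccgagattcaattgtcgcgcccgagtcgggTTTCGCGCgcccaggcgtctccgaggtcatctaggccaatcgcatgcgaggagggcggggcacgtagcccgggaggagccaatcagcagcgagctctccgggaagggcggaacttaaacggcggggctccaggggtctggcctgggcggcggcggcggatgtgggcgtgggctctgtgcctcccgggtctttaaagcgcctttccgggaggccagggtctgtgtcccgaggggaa

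Such a match was found in 2.26% of all 32851 RefSeq promoter windows of this length, and in at least 1 window of 2.6% of 27025 genes. The windows of the other 6 members held 0. A match describes the letters of the window and does not show that a factor binds there.

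Uhrf1 had the highest correlation of the 5 kept members with replication genes over cells. Its correlation with the mean level of 23 G1/S genes (a list that leaves out Pcna and the members) was 0.34, 0.57, 0.42, 0.40 and 0.34 in the 5 preparations, with a weighted mean of 0.42. Of all genes tested 0.0957% had a mean rho as high. These genes include Uhrf1 and the 23 list genes, which enter the mean they are compared with, so the share is not a clean background. The mean for Dnmt1 was 0.21, with -0.04 in preparation 1 and up to 0.31 elsewhere. Those of Dnmt3a (0.01), Dnmt3b (0.06) and Tet3 (0.01) lay near the median of all genes (0.05). With 24 G2/M genes the mean for Uhrf1 was -0.06 and that for Dnmt1 was 0.05. With detected genes per cell regressed out, unlike the values above, the gene closest to Uhrf1 was Pcna, the sliding clamp of replication (mean rho 0.40, lowest 0.28). Next by that measure was Ccnd2, which encodes cyclin D2 (0.38, lowest 0.25). Detected genes per cell had little relation to either maintenance gene (mean rho 0.02 for Dnmt1 and 0.05 for Uhrf1).

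**Figure D2:**
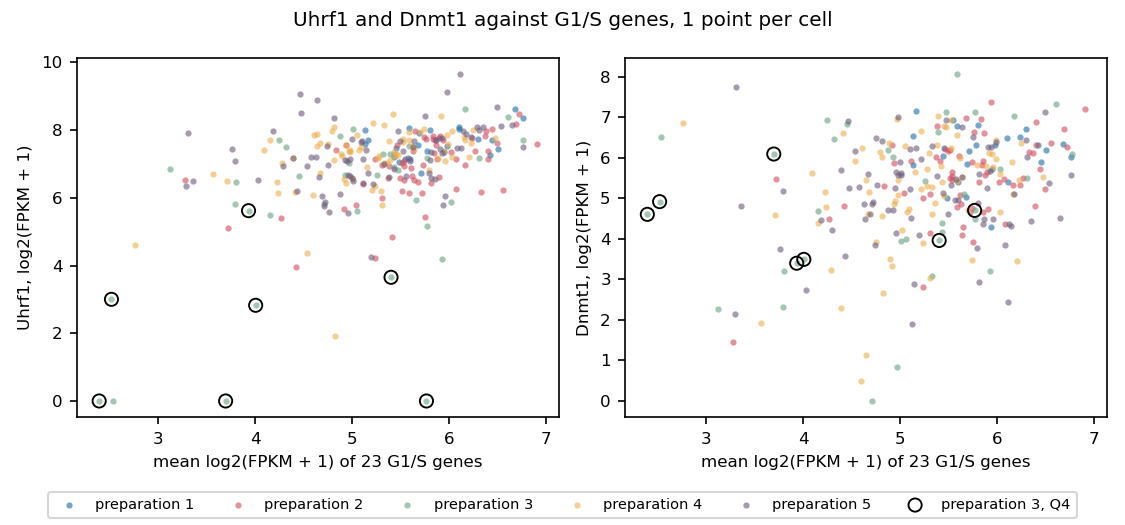
Uhrf1 (left) and Dnmt1 (right), as log2(FPKM + 1), against the mean log2(FPKM + 1) of 23 G1/S genes, with 1 point per cell coloured by preparation. Open circles mark the 7 cells of preparation 3 in Q4, whose Uhrf1 values ran from 0 to 48.2 FPKM while their Dnmt1 values ran from 9.56 to 67.4.

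In 1 small set of cells Uhrf1 was nearly missing. The 7 cells of preparation 3 in Q4 had Uhrf1 at 0, 0, 0, 6.09, 7.02, 11.6 and 48.2 FPKM. The medians of the other 3 quartiles of that preparation were 118, 112 and 123 FPKM. On the log2(FPKM + 1) scale the mean of the 7 cells was 2.16, against 6.76, 6.73 and 6.35 in Q1, Q2 and Q3 of preparation 3 and 6.66 to 7.41 in Q4 of the other preparations. Uhrf1 was listed at 0 in 4 of the 278 cells, 3 of them in this set and 1 in Q3 of preparation 3. Dnmt1 was present in these 4 cells at 23.4 to 90.4 FPKM. Relative to the other quartiles of preparation 3, Uhrf1 in the 7 cells was lower by a log2 difference of -4.43, and 4 of 10452 genes, Uhrf1 included, lay as low or lower (median of all genes -0.26). Dnmt1 differed there by -0.57, Dnmt3a by 0.19 and Dnmt3b by 0.86. The 7 cells averaged 3889 detected genes, against 4565 in the other cells of the preparation, with median estimated depths of 895310 and 746333 fragments. In the 4 cells without Uhrf1 the median of the mean level of the G1/S genes was 3.12 (from 2.39 to 5.77), against 5.26 in the other cells of preparation 3. The part of detected genes and cell cycle genes in the low Uhrf1 values was not tested.

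Across EGFP quartiles Uhrf1 and Dnmt1 had their highest means in the bright cells, but neither passed the test over all genes. Uhrf1 averaged 182 ± 37 FPKM in Q1, then 156 ± 34.4, 162 ± 30.6 and 128 ± 68.1 FPKM in Q2, Q3 and Q4 (SD, n = 5 preparations). Its differences in mean log2(FPKM + 1) between Q1 and Q4 were 0.40, 0.23, 4.60, 0.84 and 0.02 in preparations 1 to 5. All 5 lay above 0, and that of preparation 3 stood far from the rest. The share of all genes with all 5 above 0 was not computed. The fitted difference was 0.88 ± 0.38 (SE; limma p = 0.030, adjusted p = 0.371). Without preparation 3 it was 0.36 (limma adjusted p = 0.452).

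Dnmt1 averaged 61.5 ± 5.89 FPKM in Q1, with 54.5 ± 16.7, 58.4 ± 22.2 and 45.5 ± 15.4 FPKM in the following quartiles (SD, n = 5). Its differences between Q1 and Q4 were 0.09, -0.05, 0.91, 0.26 and 0.98 in preparations 1 to 5, above 0 in 4 of them. The fitted difference was 0.45 ± 0.26 (SE; limma adjusted p = 0.529, 95% interval from -0.08 to 0.99). As a measure of the whole table, the median difference over the 10452 genes was 0.17, and 69.5% of genes lay above 0.

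**Figure D3:**
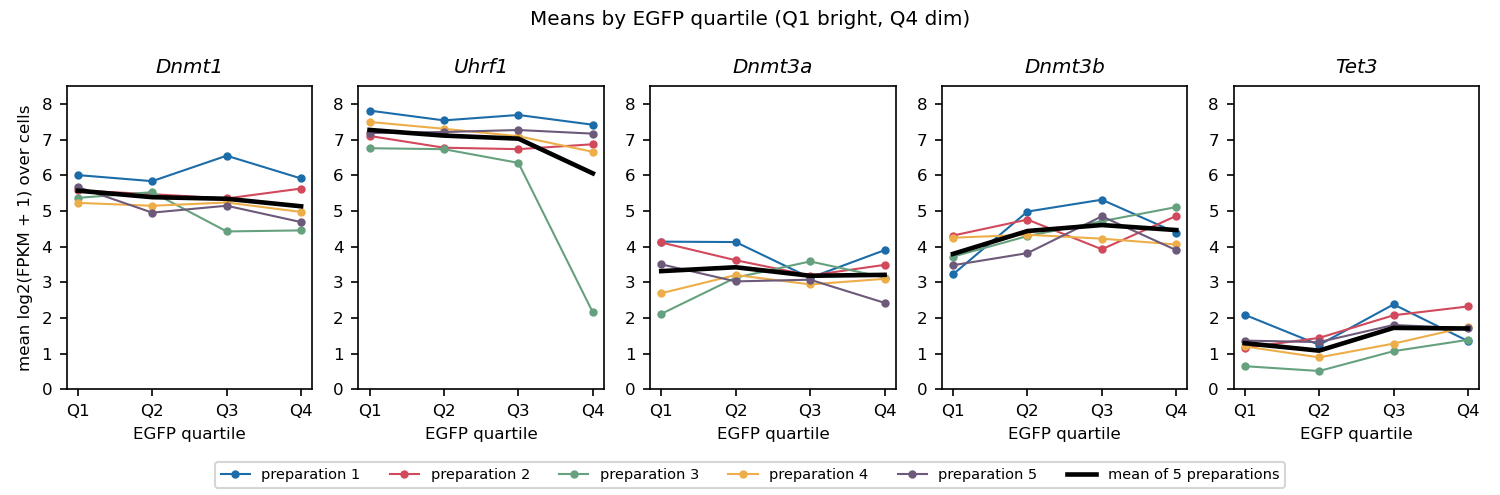
Mean log2(FPKM + 1) over the cells of each preparation in quartiles Q1 (bright) to Q4 (dim) for the 5 members kept by the filter. Coloured lines are the 5 preparations and the black line is their unweighted mean. Uhrf1 in Q4 of preparation 3 lay at 2.16, Dnmt3b in Q1 lay below Q2 in each preparation, and Tet3 in Q2 lay below Q3 in each. The Dnmt3b and Tet3 steps were picked among the adjacent quartile steps of the 5 members.

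In the limma fit to the 20 preparation and quartile means, 0 of the 5 tested members passed an adjusted p of 0.05 between Q1 and Q4, where 8 of 10452 genes (0.0765%) did, and 0 did when the preparation block was left out. At an unadjusted p under 0.05 there were 2 members, Uhrf1 higher and Tet3 lower in Q1, against 11.4% of all genes. For a linear trend over the quartiles the adjusted test called 0 members and 0.134% of genes. The unadjusted trend test named the same 2 members, against 12.2% of genes. For any difference among quartiles the adjusted test called 0 members and 0.0% of genes, and the unadjusted test named Tet3, against 8.38% of genes. The median fitted difference of the 5 members was 0.23, with 3 above 0. Whether the preparations stem from different litters is not stated, so p-values speak for these preparations only. With preparation as a block, they rest on how quartile differences vary among preparations. That spread was pooled over the 4 quartiles, weighted by cells and drawn toward that of other genes. Unweighted, the Uhrf1 differences between Q1 and Q4 had a mean of 1.22 and an SD of 1.91 (n = 5 preparations).

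The de novo enzymes Dnmt3a and Dnmt3b were mostly found in the same cells. Both were detected in 216 of 278 cells (77.7%), Dnmt3a alone in 35, Dnmt3b alone in 21 and neither in 6. Dnmt3b was the higher of the pair in 195 cells (70.1%). Their levels had no common direction over cells, with correlations of -0.44, 0.36, 0.18, -0.12 and 0.16 in preparations 1 to 5 (weighted mean 0.07). Dnmt3a lies on chromosome 12 (3806007 to 3914443, plus strand), and its exons overlap those of Dnmt3aos on the opposite strand. Whether strand was used in counting is not known here, so reads of the latter could be counted in it. Dnmt3b lies on chromosome 2 (153649450 to 153687730, plus strand) and shares no exonic bases with another annotated gene.

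Dnmt3b had its lowest means in the brightest cells, and this did not pass the test. It averaged 28.3 ± 7.59 FPKM in Q1 and 40.9 ± 9.42, 40.6 ± 9.92 and 45.7 ± 21.9 FPKM in Q2 to Q4 (SD, n = 5). Median values per cell were 19.7, 29.4, 37.0 and 43.9 FPKM from Q1 to Q4, while the share of cells with Dnmt3b detected was 83.8%, 88.6%, 85.1% and 83.3%. The medians were thus ordered by brightness while the shares were not. The differences in mean log2(FPKM + 1) between Q1 and Q4 were -1.17, -0.55, -1.39, 0.19 and -0.42 in preparations 1 to 5. Q1 lay below Q4 in 4 of 5 preparations and below Q2 in 5 of 5. The step from Q1 to Q2 was picked among the adjacent quartile steps of the 5 kept members. The share of all genes with such a step was not computed. The fitted difference was -0.50 ± 0.34 (SE; limma adjusted p = 0.607, 95% interval from -1.20 to 0.20). It was not beyond the spread of quartile differences among preparations.

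Dnmt3a showed no order by brightness. It averaged 14.1 ± 7.11 FPKM in Q1 and 13.8 ± 3.32, 13.3 ± 3.63 and 13.7 ± 2.79 FPKM from Q2 to Q4 (SD, n = 5). Its differences between Q1 and Q4 were 0.24, 0.63, -1.02, -0.40 and 1.08, with both signs among the preparations. The fitted difference was 0.23 ± 0.34 (SE; limma adjusted p = 0.851, 95% interval from -0.48 to 0.93), and it was -0.12 without preparation 5.

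Dnmt3l, the cofactor that marks fetal prospermatogonia, was found in 9 cells, at 1.18, 1.33, 1.78, 2.70, 5.58, 24.4, 38.6, 65.8 and 71.7 FPKM. Of these, 4 were in Q2, 4 in Q3 and 1 in Q4. In Q1 it was detected in 0 of 74 cells, which allows a share of cells at or above 1 FPKM of up to 4.05%. This limit covers counting error over these cells alone, and it limits detection, not expression. By preparation there were 1, 4, 0, 3 and 1 such cells. Dnmt3a and Dnmt3b were both detected in 8 of the 9. The exons of Dnmt3l (chromosome 10, 78041947 to 78063622, plus strand) overlap those of Aire on the opposite strand, so these values are uncertain.

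Dnmt3b, and not Dnmt3a, stood higher in cells with more Kit or Stra8. Stra8 was detected in 212 of 278 cells (76.3%) with a median of 48.5 FPKM, and Kit in 164 cells (59%) with a median of 3.67 FPKM. Both were detected in 142 cells. The within-preparation correlation of Kit with Stra8 was 0.40 on average. That of Dnmt3b with Stra8 was 0.31, 0.44, -0.0028, 0.32 and 0.26 in preparations 1 to 5, with a weighted mean of 0.28. With Kit it was 0.00034, 0.17, 0.07, 0.33 and 0.43, with a weighted mean of 0.26. The values near 0 were those of preparation 3 for Stra8 and of preparation 1 for Kit.

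For scale, 0.0574% of genes had a mean rho with Stra8 as high as Dnmt3b, which is among them, and 0.105% with Kit. A mean rho of at least 0.2 in size was reached by 1.53% of genes with Stra8 and by 1.8% with Kit. A rho with Kit above 0 in 5 of 5 preparations, as for Dnmt3b, was seen in 8.54% of genes. With detected genes per cell regressed out the mean rho of Dnmt3b was 0.26 with Stra8 and 0.23 with Kit. In cells with both genes detected it was 0.13 with Stra8 and 0.28 with Kit, so the relation with Stra8 was weaker among cells that had some of each.

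Dnmt3a had the opposite sign with Stra8. Its correlation was -0.59, -0.01, -0.28, -0.17 and -0.15 in preparations 1 to 5, below 0 in 5 of 5, with a weighted mean of -0.18. A rho with Stra8 below 0 in 5 of 5 preparations was seen in 2.62% of genes, and 0.832% had a mean as low. With Kit the mean for Dnmt3a was -0.04, with 2 of 5 preparations above 0. It was 0.095 in cells with both detected.

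**Figure D4:**
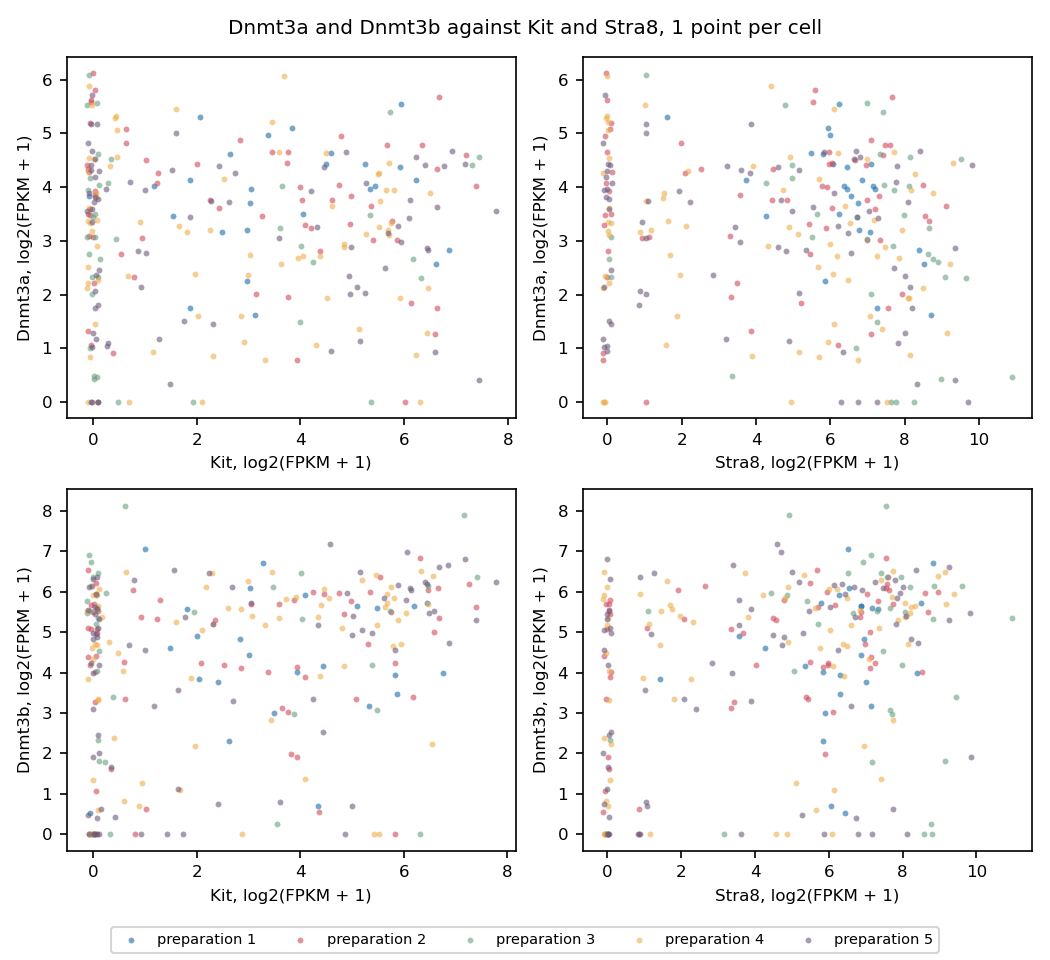
Dnmt3a (top) and Dnmt3b (bottom) against Kit (left) and Stra8 (right), all as log2(FPKM + 1), with 1 point per cell coloured by preparation and a small horizontal scatter added. Cells with Dnmt3b below 1 FPKM occur both with and without Stra8. The weighted mean correlations with Stra8 were 0.28 for Dnmt3b and -0.18 for Dnmt3a.

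Cells were also divided at FPKM of 1 of each marker, as a description of ranges and not of cell types. Preparation 1 had Stra8 in all 26 cells and Kit in 25, so the division used preparations 2 to 5. In cells with Stra8 the mean log2(FPKM + 1) of Dnmt3b was 5.05, 4.73, 4.60 and 4.50 in preparations 2 to 5. In the other cells it was 3.04, 0.78, 3.2 and 3.0. The 4 values with Stra8 lay above all 4 without it. Their mean difference was 2.22 ± 1.19 (SD, n = 4 preparations), where the median of all genes was 0.16. Genes higher with Stra8 in 4 of 4 preparations made up 17.0% of the table, but 0.0191% had a mean difference as large, Dnmt3b among them, and Taf9b, a TFIID subunit gene chosen after its values were seen, was the other such gene. The preparation 3 value rests on 3 cells without Stra8. Without that preparation the mean was 1.64, and 0.0383% of genes were as high.

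The share of cells with Dnmt3b detected moved in the same direction. It was 100%, 88.2%, 90.9% and 83% of cells with Stra8 and 72.2%, 33.3%, 70% and 68% of cells without, in preparations 2 to 5. Cells with Stra8 also had more detected genes, by preparation 7008, 4490, 6252 and 6018 on average against 6809, 3842, 5573 and 5573. The part of detected genes in the difference was not tested in this division. Few cells lay near the boundary: Stra8 was between 0.5 and 1 FPKM in 9 cells and between 1 and 2 in 11. At the median depth an FPKM of 1 stands for 1.22 fragments of Stra8, given its longest annotated transcript. Values near the boundary thus rest on few fragments, and these counts do not show that the division is clean.

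Division by Kit gave a smaller difference for Dnmt3b. Its means were 4.56, 4.60, 4.71 and 4.65 with Kit and 4.31, 4.31, 3.46 and 3.28 without, in preparations 2 to 5. The mean difference was 0.79 ± 0.60 (SD, n = 4), and 16.8% of genes were higher with Kit in 4 of 4 preparations. The preparations split, with 0.25 and 0.29 in preparations 2 and 3 and 1.24 and 1.37 in preparations 4 and 5. Dnmt3a differed by -0.20 ± 0.23 with Kit and by -0.07 ± 0.37 with Stra8 (SD, n = 4), with both signs among preparations in each case. With detection of the marker set at FPKM of at least 5 these values were -0.0017 and -0.37. For Kit this higher cut also let in preparation 1, so its values at the 2 cuts are not over the same preparations.

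**Figure D5:**
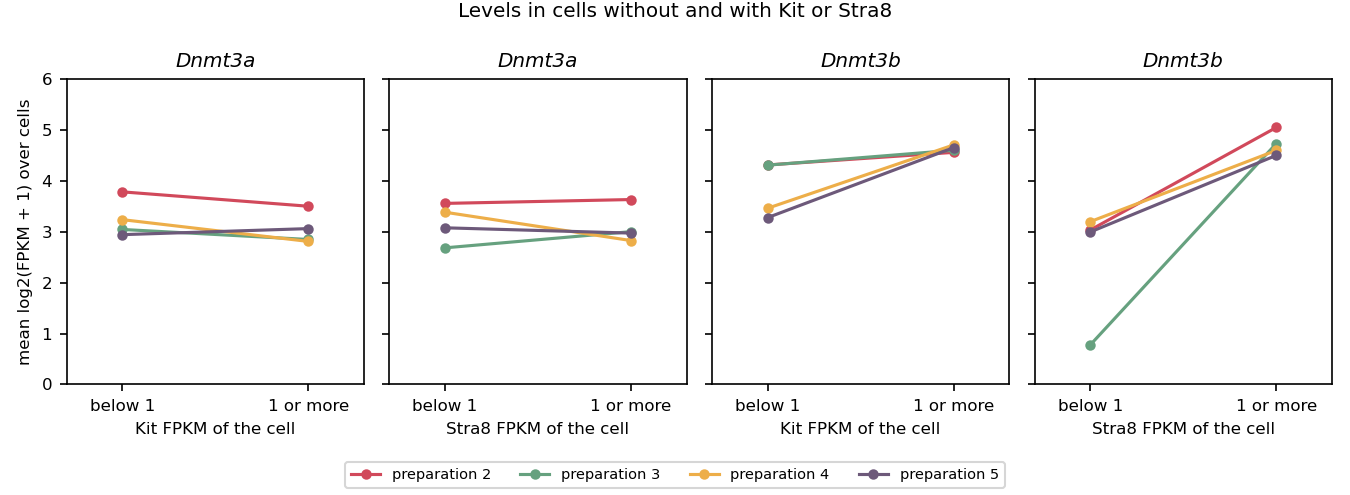
Mean log2(FPKM + 1) of Dnmt3a and Dnmt3b in cells below and at or above 1 FPKM of Kit or Stra8, with 1 line per preparation (2 to 5). Dnmt3b was higher in the cells with Stra8 in each of the 4 preparations, by 1.40 to 3.95, and Dnmt3a lines ran in both directions.

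Taken by both markers, Dnmt3b had a median of 4.35 FPKM in the 44 cells with neither, 12.2 in the 22 with Kit only, 30.4 in the 70 with Stra8 only and 41.4 in the 142 with both. Dnmt3a had medians of 10.7, 7.76, 10.1 and 9.54 FPKM in the same order. The medians of Dnmt3b thus covered a wide range over these pooled sets while those of Dnmt3a stayed within 7.76 to 10.7 FPKM. The sets differ in make-up. Preparation 3 gave 21 of the 70 cells with Stra8 only and 0 of the 22 with Kit only. Preparation 1 gave 25 of the 142 with both and 0 of the 44 with neither. Median detected genes were 5695 with neither and 6687.5 with both. The part of preparation and detected genes in these medians was not tested. Within quartiles, the median of Dnmt3b with and without Stra8 was 30.9 and 3.01 FPKM in Q1. The same medians were 35.6 and 10.8 in Q2, 40.2 and 32.6 in Q3, and 46.6 and 4.17 in Q4. It was higher with Stra8 in each quartile, least so in Q3. With and without Kit it was 25.6 and 9.15 FPKM in Q1, 37.3 and 25.4 in Q2, 49.2 and 22.2 in Q3, and 44 and 42.6 in Q4. The cells of a quartile come from all preparations, so these medians also carry the differences between preparations. Kit and Stra8 themselves had no steady order by brightness. Stra8 was detected in 71.6%, 78.6%, 79.7% and 75% of cells and Kit in 58.1%, 62.9%, 63.5% and 50% from Q1 to Q4.

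The promoter window of Dnmt3b is shown because its level moved with Stra8, a gene that responds to retinoic acid. It lies at chr2:153649199-153649498 on the plus strand of GRCm38.p6, and the capitals mark an E-box, the short site of basic helix-loop-helix factors.
Dnmt3b: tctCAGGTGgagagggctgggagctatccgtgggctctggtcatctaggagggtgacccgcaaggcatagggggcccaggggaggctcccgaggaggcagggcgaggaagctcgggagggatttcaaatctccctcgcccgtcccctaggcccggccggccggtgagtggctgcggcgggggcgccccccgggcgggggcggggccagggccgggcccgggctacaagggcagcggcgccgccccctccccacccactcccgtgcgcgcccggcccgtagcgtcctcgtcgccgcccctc

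The match is CAGGTG and begins at position -247. The E-box search covered this form and its reverse complement as well as the palindrome CACGTG. Of all windows 25.9% held such a match, as did windows of Dnmt1, Dnmt3a (CACGTG, beginning at position -80) and Dnmt3l. Letters of the retinoic acid receptor half-site, AGGTCA or GGTTCA on either strand, had 0 matches in this window and were present in 24.8% of all windows, among them a window each of Dnmt3a, Uhrf1 and Tet1. The absence of a match says only that these letters are not in this window.

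Of the dioxygenases, Tet3 was the main transcript. At least 1 Tet gene was detected in 159 of 278 cells (57.2%), and in 136 of these it was Tet3 alone. Tet1 or Tet2 was found without Tet3 in 15 cells and with it in 8. In 119 cells (42.8%) no Tet gene was detected. Tet3 lies on chromosome 6 (83362373 to 83459084, minus strand), Tet1 on chromosome 10 (62804570 to 62908996, minus strand) and Tet2 on chromosome 3 (133463679 to 133545139, minus strand). Exons of Tet2 overlap Gm42567, which lies on the opposite strand, and its values carry that uncertainty.

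Tet3 had higher means in the dimmer cells, without passing the test over all genes. It was detected in 44.6%, 40%, 60.8% and 63.3% of cells from Q1 to Q4, and averaged 3.42 ± 1.05, 2.49 ± 1.19, 4.91 ± 1.93 and 6.68 ± 3.25 FPKM (SD, n = 5). The step lay between Q2 and Q3, where Q3 was the higher in 5 of 5 preparations. It was picked among the adjacent quartile steps of the 5 kept members, and the share of all genes with such a step was not computed. Its differences in mean log2(FPKM + 1) between Q1 and Q4 were 0.74, -1.16, -0.74, -0.55 and -0.34 in preparations 1 to 5, below 0 in 4. The fitted difference was -0.54 ± 0.25 (SE; limma adjusted p = 0.419). The slope per quartile step toward Q1 was -0.22 ± 0.08 (SE; limma p = 0.012, adjusted p = 0.266). Preparation 3 had Tet3 in 24.3% of its cells, against 49.3% to 66.1% in the others. Over cells Tet3 had a mean rho of 0.18 with Kit and 0.12 with Stra8, with 3 and 2 of 5 preparations above 0, and of 0.15 with Dnmt3b. Of all genes 2.65% had a mean rho with Kit as high as that of Tet3, and 11.6% had one with Stra8.

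Tet1 was detected in 3, 6, 1 and 0 cells of Q1 to Q4, and Tet2 in 5, 3, 6 and 1. The 0 of 60 cells for Tet1 in Q4 allows a share at or above 1 FPKM of up to 5.00%, with the same limits, and 1 cell of Q4 had Tet1 at 0.243 FPKM. Detected values reached 16.9 FPKM for Tet1 and 25.4 for Tet2. When all genes above 0 in any cell were fitted (17107 genes), the differences between Q1 and Q4 were 0.12 ± 0.07 for Tet1, 0.09 ± 0.13 for Tet2 and -0.01 ± 0.09 for Dnmt3l (SE; limma adjusted p = 0.636, 0.890 and 1.00).

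The genes that work with these enzymes were taken from 5 lists with 48 genes. Of these 46 were in the matrix and 42 were kept by the filter. Between Q1 and Q4, 0 of the 42 passed at an adjusted p of 0.05. At an unadjusted p under 0.05 there were 4, all higher in Q1, where 1084 of all genes were higher and 108 lower. The median difference of the 42 genes was 0.15, with 31 above 0 (73.8%), beside 0.17 and 69.5% for all genes. The list of replication-linked maintenance and chromatin access had a median of 0.23 over 7 genes, all above 0. Of that list Hells, a chromatin remodeler needed for DNA methylation, was higher in Q1 in 5 of 5 preparations, by 0.56 ± 0.23 (SE; limma adjusted p = 0.330).

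De novo guidance genes, such as those of piRNA and histone methylation factors, had a median of 0.06 over 12 genes, with 7 above 0 and 0 at an unadjusted p under 0.05. Genes of oxidation and base excision had a median of 0.11 over 10 genes, with 3 at an unadjusted p under 0.05. Cxxc5, a CXXC zinc finger protein that interacts with TET2, differed by 0.96 ± 0.35 (SE; limma adjusted p = 0.282), higher in Q1 in 4 of 5 preparations. Idh1, which makes the TET cosubstrate alpha-ketoglutarate, differed by 1.00 ± 0.41 (SE; limma adjusted p = 0.336), higher in 5 of 5. For Hells and Idh1, the share of all genes that were higher in Q1 in 5 of 5 preparations was not computed. Methyl-CpG readers had a median of 0.19 over 7 genes and methyl donor supply 0.34 over 6, each with 0 genes at an unadjusted p under 0.05.

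By likeness over cells, measured as the mean within-preparation Spearman rho with detected genes regressed out (278 cells in 5 preparations), Dnmt3b and Dnmt3a had different neighbours. Closest to Dnmt3b were Cited1, a transcriptional coregulator (0.32), Uchl1, a deubiquitinase of spermatogonia (0.32), Cd63, a tetraspanin (0.30), Bnip3, a mitophagy receptor (0.30), and Crabp1, a retinoic acid binding protein (0.27). Each was above 0 in 5 of 5 preparations, with a lowest rho from 0.0028 (Bnip3) to 0.18 (Cited1). Closest to Dnmt3a were Med12, a Mediator subunit (0.24), Sfmbt1, a Polycomb-related protein (0.22), Tubb5, a beta-tubulin (0.21), Cpne1, a copine (0.21), and Mfge8, a secreted glycoprotein (0.21). Sfmbt1 and Cpne1 were above 0 in 4 of 5. Closest to Tet3 were Zfp84, a zinc finger protein (0.26), and Ndrg4 (0.26). These values are the highest of 10452 genes and so were chosen by size, which also favours the same sign in each preparation.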

How the data were processed

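Deposited values are FPKM per gene and cell; the unit was read from the quantifier's name and the values. TopHat, Cufflinks, FastQC and Picard were run on mm10 (GRCm38), per the submitters' processing notes; their versions and the annotation are not stated in the sources used. The dim quartile is numbered differently in a passage of the protocols, and the order of the design text was used. The number after "Seq" in each title was taken as the preparation, though the labels do not say what it marks. An exact 0 can be a failed estimate. Depth was estimated from the smallest steps of low values in 2110 genes with 1 transcript (5646 values at the step of 1 fragment, 1831 between steps), so it is approximate.

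Cells were not treated as replicates. The 20 preparation and quartile means of log2(FPKM + 1), weighted by cells, were fitted with limma 3.58.1 (R 4.3.3, data.table, version 1.17.8; trend = TRUE) with preparation as a block, two-sided, with Benjamini-Hochberg adjustment over 10452 genes. A pseudocount of 1 understates changes of low genes. Summaries used Python 3.11.15, NumPy 2.4.6, pandas 2.3.3, SciPy 1.17.1 and matplotlib 3.10.9. The scripts were tested on simulated data. No cells were duplicates (highest correlation 0.692). Coordinates are from GENCODE M21 and promoters from RefSeq.

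The members and lists were chosen with earlier results of these data known. Named genes were the members, Kit and Stra8, the up to 3 listed partner genes of smallest p, the 5 genes closest to Dnmt3a and to Dnmt3b and the 2 closest to each other kept member.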

Additional observations from a re-analysis of the deposited data

Results flagged for a closer look

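Of 29 sets of 5 preparation values examined, 2 held a preparation far from the others, where chance gives about 1 in 20. The count of 2 in 29 lies near that rate. Both concern Uhrf1 in preparation 3 and use the same Q4 mean, so they are not separate observations. Its mean log2(FPKM + 1) in Q4 was 2.16 there and 6.66 to 7.41 in the other 4 preparations. Its difference between Q1 and Q4 was therefore 4.60 in preparation 3 and 0.02 to 0.84 in the others. The 7 cells behind the low mean ran from 0 to 48.2 FPKM.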

How the results depend on the processing

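Over 12 alternative fits, 0 of 120 tests of the 5 members passed (limma adjusted p from 0.152 to 0.999). Only Dnmt3a changed sign: with the log2 of the mean FPKM over cells its difference between Q1 and Q4 was -0.019 and its slope -0.0042, and with each preparation left out they ran from -0.12 (without preparation 5) to 0.45 and from -0.011 to 0.16. The differences ran from 0.36 to 1.24 for Uhrf1, 0.19 to 0.67 for Dnmt1, -0.75 to -0.29 for Dnmt3b and -1.01 to -0.36 for Tet3. The labels do not say that the preparation number pairs the means. Deviations of same-number means correlated at over 0.1 in 27 of 30 pairs (median 0.19, lowest 0.08), against a median of -0.09 between numbers, and 19 of 20 means correlated best with one of their own number. With no replicate block Uhrf1 differed by 0.86, Dnmt3b by -0.48 and Tet3 by -0.56, and the counts of genes called between Q1 and Q4 and by trend, 8 and 14 with the block, were 0 and 0. They were also 0 with no filter, with detected genes as a covariate, with the log2 of the mean and with unweighted means. With cells scaled to a common 75th percentile they were 38 and 61. Leaving out each preparation gave 0 to 11 genes between Q1 and Q4 and 0 to 9 by trend. The median difference of all genes was 0.17, and 0.26, 0.32 and -0.02 with the common percentile, a pseudocount of 0.1 and the covariate. The rho of Dnmt3a with Kit was 0.095 in cells with both detected, and its difference by Stra8 was 0.10 without preparation 4 (from -0.19 to 0.10 over preparations left out). That of Dnmt3b by Stra8 ran from 1.64 to 2.49, and was 1.68 with detection at FPKM of at least 5, where Dnmt3a differed by -0.0017 by Kit and by -0.37 by Stra8. The Kit value at this cut includes preparation 1, which the division at FPKM of 1 left out. The cause of these changes was not tested.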
